A study of Mus musculus with 7 samples.

Results

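The S100 family was followed through neutrophils by 6 of its genes: S100a8, S100a9, S100a6, S100a11, S100a4 and S100a10. They were read as the gene symbols of these names, found in all 7 count tables, among 15742 genes with at least 1 count in the cells used. In healthy mice, cells were kept when Cd79a, Cd79b, Cd3e and Nkg7 summed to under 2 counts and Hbb-bs and Hba-a1 to under 20% of counts, and in inflammation when the authors' table called the cell a granulocyte. This kept 13715 of 16907 healthy cells and 4852 of 4856 inflammation cells. A further 12 symbols beginning with S100 had a count, S100pbp (a gene for a binding protein, not an S100 protein) included.

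CD11b-positive, Ly6G-positive neutrophils were sorted from male C57BL/6J mice and profiled by droplet single-cell RNA sequencing, which counts unique molecular identifiers (UMIs) near the 3′ end of each transcript. Blood, bone marrow and spleen of untreated mice gave 1 library each in 2 runs. Each library pooled 3 mice. A run took its 3 tissues from 1 set of mice, aged 6 weeks in run 1 and 8 weeks in run 2, so that run and age cannot be told apart. One more library held 5 conditions marked by hashtag oligomers: healthy blood, blood and joint of mice with K/BxN serum-transfer arthritis, and lavage of lung or peritoneum after IL-1β. Arthritic mice were 8 weeks old at their first injection. They received 150 µl of serum intraperitoneally on days 0 and 2 and were harvested on day 7. IL-1β (25 ng, intranasal or intraperitoneal) was given at 8 weeks, 3 h before lavage. Values are counts per 1000000 UMIs (CPM) of the kept cells. They are not scaled for transcript length. Levels of the inflammation library were not compared with those of the 2 runs, since the study names another reagent version for it.

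S100 proteins are small EF-hand proteins that change shape on binding calcium and then bind a partner. S100A8 and S100A9 pair as calprotectin, a major cytosolic protein of neutrophils that withholds zinc and manganese from microbes and, once released, can signal through TLR4 and RAGE. S100A6 (calcyclin) binds calcyclin-binding protein, S100A11 binds annexin A1, S100A10 binds annexin A2 without needing calcium, and S100A4 binds non-muscle myosin.

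All 6 genes lie on chromosome 3 (GRCm38) within 2.96 Mb, and 8 other S100 symbols lie on the same chromosome. S100a4 (90603771 to 90606045, plus strand), S100a6 (90612882 to 90624181, plus), S100a8 (90668978 to 90670035, plus) and S100a9 (90692632 to 90695721, minus) form one group, in which 22.6 kb separate S100a8 from S100a9. S100a11 (93520488 to 93526287, plus) and S100a10 (93555080 to 93564643, plus) form the other, 28.8 kb apart. Promoter sequence from RefSeq (GRCm38.p6) was held for 5 of the 6 genes. The 4 shown here belong to the abundant members, since S100a8 and S100a9 moved together below while S100a6 and S100a11 took other courses. Each runs 5′ to 3′ on the gene's strand up to the gene's first annotated exon, with capitals on matches to 5 motifs (C/EBP, PU.1, AP-1, TATA box and NF-kB) searched on both strands over 250 bases before the RefSeq start.
S100a8, chr3:90668821-90668977, plus strand: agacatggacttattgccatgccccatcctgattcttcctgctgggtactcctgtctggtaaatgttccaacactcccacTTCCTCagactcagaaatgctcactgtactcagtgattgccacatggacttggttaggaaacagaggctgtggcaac
S100a9, chr3:90695722-90695971, minus strand: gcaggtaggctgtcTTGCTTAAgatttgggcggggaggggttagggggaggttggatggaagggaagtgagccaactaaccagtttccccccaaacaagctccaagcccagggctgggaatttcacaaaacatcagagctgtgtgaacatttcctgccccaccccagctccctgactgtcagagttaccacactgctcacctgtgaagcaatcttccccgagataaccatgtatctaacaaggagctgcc
S100a6, chr3:90612644-90612881, plus strand: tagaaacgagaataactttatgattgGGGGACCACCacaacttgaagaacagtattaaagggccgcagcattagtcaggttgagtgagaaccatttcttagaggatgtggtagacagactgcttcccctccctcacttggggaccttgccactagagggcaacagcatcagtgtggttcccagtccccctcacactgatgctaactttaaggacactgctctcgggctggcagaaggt
S100a11, chr3:93520246-93520487, plus strand: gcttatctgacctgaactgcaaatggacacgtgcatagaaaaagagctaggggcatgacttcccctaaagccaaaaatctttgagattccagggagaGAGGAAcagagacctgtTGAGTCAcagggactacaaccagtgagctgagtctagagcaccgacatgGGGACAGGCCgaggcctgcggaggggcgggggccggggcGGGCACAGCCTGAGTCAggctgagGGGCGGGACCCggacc

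The partner promoters held different letters. S100a9 had the only C/EBP match (TTGCNNAA) among the 5 promoters searched, 236 bases before its start, and these letters were found in 9.56% of 32851 mouse promoters. S100a8 had PU.1 matches (GAGGAA, 23.3% of promoters) on the opposite strand at 170 and 36 bases. Its TATA box at 30 bases, a match to letters that 12.4% of promoters hold (TATAAA), lay with the nearer PU.1 match inside an annotated exon and is not printed. S100a6 had 1 NF-kB match, at 224 bases, a motif of GGG and CC set 5 bases apart that 45.8% of promoters hold. S100a11 held 7 matches, among them AP-1 (TGANTCA, 6.75% of promoters) at 136 and 38 bases and PU.1 at 153 bases, and its capitals run together where AP-1 at 38 bases adjoins NF-kB at 48 bases. A match is a description of these letters only.

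In the 6 healthy libraries the kept cells held 1728719 to 9125675 UMIs, with 813 to 2697 UMIs in the median cell, and the 5 conditions held 942688 to 10293966 UMIs with medians of 2527 to 3681. All 13 neutrophil markers had UMIs in every library and condition. Spleen of run 2 stood apart. Its T cell markers summed to 1732 CPM, against 44.9 CPM in blood and 36.9 CPM in bone marrow of run 2, with 8 of 8 listed in each. The lowest sum was 33.0 CPM in bone marrow of run 1, whose table lists only 1 of the 8. Neutrophil markers in spleen of run 2 summed to 31334 CPM, the lowest of a range that reached 138719 CPM. Monocyte or macrophage markers, 8 to 11 of 11 with a UMI, ranged from 352 CPM in blood of run 2 to 1607 CPM in bone marrow of run 1. Erythroid markers reached 12397 CPM in blood of run 2 against 197 CPM in the lowest library. Any pair of libraries shared 0 to 36 cell barcodes. Results below are therefore also given without either spleen library and without cells carrying monocyte or lymphocyte transcripts, a choice made after these values were seen.

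S100a8 and S100a9 were highest in bone marrow and lower in blood in both runs. In bone marrow S100a8 stood at 226634 CPM in run 1 and 224023 CPM in run 2, more than 1 in 5 transcripts. Blood held 126242 and 107881 CPM, and spleen 208245 and 75663 CPM. The bone marrow libraries nearly coincided (225328 ± 1847 CPM, SD, n = 2) and lay above both blood libraries (117061 ± 12984 CPM), whereas the spleen libraries fell on either side of blood (141954 ± 93749 CPM). S100a9 followed in step, at 125274 and 123472 CPM in bone marrow, 74544 and 66709 CPM in blood, and 117718 and 47175.5 CPM in spleen. Within a run, blood over bone marrow was −0.84 and −1.05 on the log2 scale for S100a8 and −0.75 and −0.89 for S100a9. Spleen over blood went up in run 1 (0.72 and 0.66 for S100a8 and S100a9) and down in run 2 (−0.51 and −0.50). Without the cells of the monocyte and lymphocyte sets described below, S100a8 stood at 0.49 in run 1 against −0.07 in run 2, and S100a9 by 0.43 against −0.05. In sums of this kind, fewer cells of a type and less RNA per cell cannot be told apart.

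**Figure D1:**
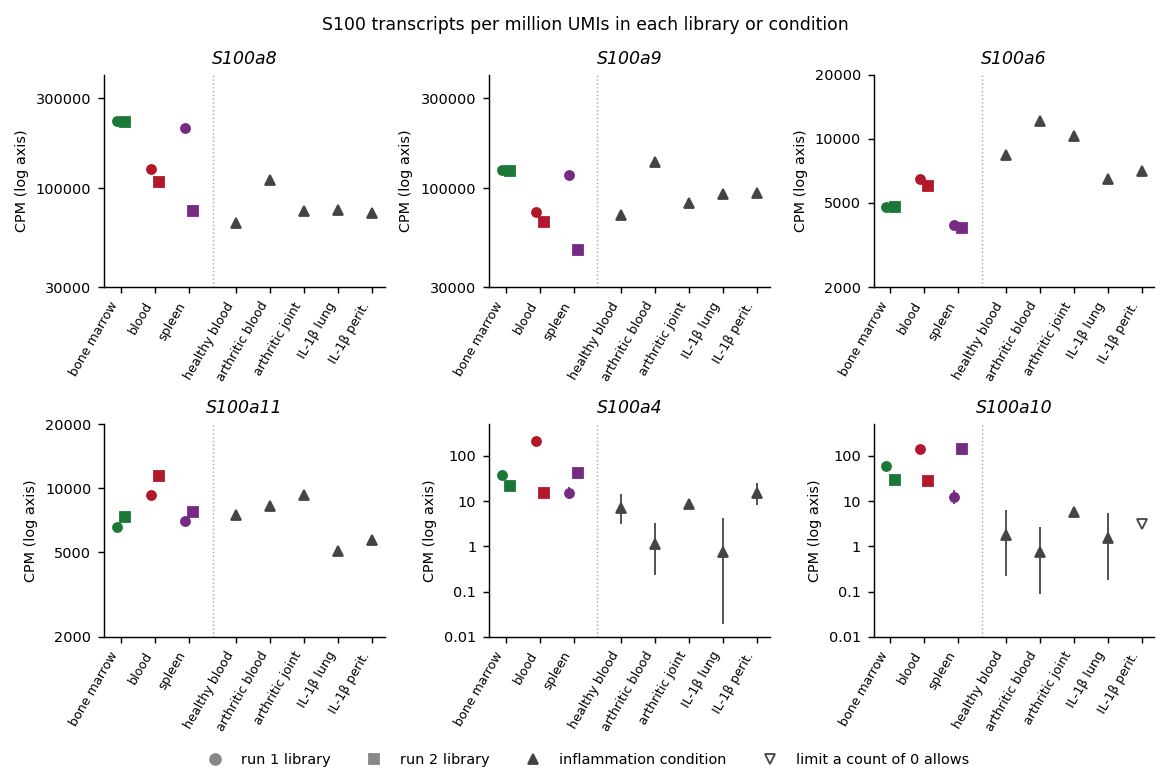
CPM of each member (log axis, ranges differ between panels) in each healthy library (circles run 1, squares run 2, coloured by tissue) and each inflammation condition (triangles), with exact 95% Poisson intervals that cover counting error only; the open triangle marks the limit that a count of 0 allows. S100a8 and S100a9 have the same order of libraries in the healthy tissues, with bone marrow near 225328 and 124373 CPM, while S100a4 and S100a10 lie at or below 211 CPM and their runs do not match.

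Tested across all 8328 genes with edgeR's quasi-likelihood test with the run as a block, 394 genes differed between blood and bone marrow at an FDR of 0.05 (4.73%), and 0 of the 6 members did. S100a8 was estimated at −1.33 (SE 0.81, FDR 0.401) and S100a9 at −1.19 (SE 0.75, FDR 0.416). No member had an unadjusted p under 0.05 in edgeR, and DESeq2 called 0 members (7.92% of its genes) with 2 at an unadjusted p under 0.05. Between spleen and bone marrow 0 genes were called (0%), with 708 at an unadjusted p under 0.05 and 99 called by DESeq2 (1.19%). Between spleen and blood 0 were called (0%), with 771 at an unadjusted p under 0.05 and 17 by DESeq2 (0.221%), and in both contrasts 0 members were called by either tool. The median log2 fold change of the 6 members was 0.12 for blood over bone marrow, −0.33 for spleen over bone marrow and −0.14 for spleen over blood, beside 0.04, 0.06 and 0.02 over all genes. A missing call does not show an equal level.

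The calls for the calprotectin genes differed from the main fit when a spleen library, or the cells with monocyte or lymphocyte transcripts, were left out. The 3 tissues share an estimate of spread, and the cause was not tested. Without spleen of run 1, S100a8 fell by 1.29 on the log2 scale in blood against bone marrow (SE 0.22, FDR 0.00528) and S100a9 fell by 1.16 (SE 0.22, FDR 0.00872), when 17.3% of genes were called, 7.47% lower. The remaining spleen library, assumed to vary like the other tissues, was also lower than bone marrow, by −2.15 for S100a8 (FDR 0.00593) and −1.99 for S100a9 (FDR 0.00791), and S100a10 was higher, by 1.89 (FDR 0.0135), among 10.1% of genes. In that library cells with lymphocyte transcripts held 80.4% of the S100a10 UMIs, and without them and monocyte-set cells S100a10 was at 23.6 in place of 141 CPM. Without spleen of run 2, both fell again in blood, by 1.31 (SE 0.17, FDR 0.000866) and 1.18 (SE 0.18, FDR 0.00160), when 20.4% of genes were called, 9.17% lower. The spleen library of run 1 then exceeded blood by 1.27 for S100a8 (FDR 0.0240) and 1.18 for S100a9 (FDR 0.0299) and was lower by −2.68 for S100a10 (FDR 0.0180), among 2.64% of genes. In blood of run 1 the monocyte set held 83.0% of the S100a10 UMIs, and without the sets S100a10 was at 26.7 in place of 139 CPM. Leaving out cells with monocyte or lymphocyte transcripts in place of a library also gave the blood calls, at −1.24 (SE 0.33, FDR 0.0361) and −1.10 (SE 0.31, FDR 0.0425), with 22.4% of genes called, 10.7% lower. Both genes stayed lower in blood than in bone marrow in each of the 15 alternatives tried, with estimates for S100a8 from −2.02 to −0.66 when single libraries were left out.

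**Figure D2:**
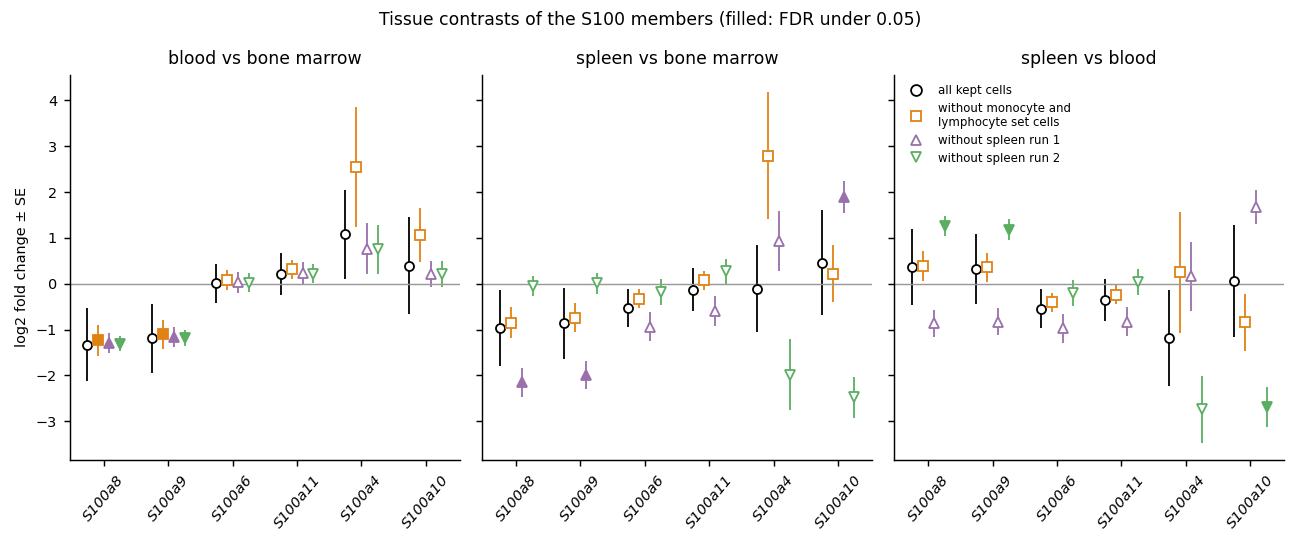
Log2 fold change ± SE (edgeR) of each member in each tissue contrast, with all kept cells, without cells of the monocyte and lymphocyte sets, and without either spleen library. There were n = 2 libraries per tissue, but only 1 of spleen in the fits without a spleen library. Filled points have an FDR under 0.05. S100a8 and S100a9 are below 0 in blood versus bone marrow in every setting shown, and change sign in spleen versus blood between the fits without spleen of run 1 and run 2.

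The ratio of S100a8 to S100a9 stayed within a narrow band although both levels moved. It was 1.81 in both bone marrow libraries, 1.69 and 1.62 in blood and 1.77 and 1.60 in spleen. On the log2 scale the means were 0.86 ± 0.0030 in bone marrow, 0.73 ± 0.05 in blood and 0.75 ± 0.10 in spleen (SD, n = 2), and the span between tissue means was 0.13 (exact permutation test over 90 arrangements, p = 0.333, where the smallest possible is 0.0667). Permuting tissues within runs, 36 arrangements, also gave p = 0.333 by the exact permutation test, where the smallest possible is 0.167. Blood was below bone marrow in both runs. The 6 members together took 36.3% and 36.0% of all UMIs in bone marrow, 21.7% and 19.2% in blood, and 33.7% and 13.5% in spleen. The span of tissue means was 15.7 percentage points (exact permutation test, p = 0.467, or 0.500 within runs), and p fell to 0.0667 without either spleen library, the smallest that 30 arrangements allow.

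Single cells showed the same order as the sums. The median cell of bone marrow gave 37.2% and 36.1% of its UMIs to S100a8 and S100a9 in runs 1 and 2, the median blood cell 15.8% and 16.4%, and the median spleen cell 27.2% and 12.2%. The spread in spleen of run 2 was wide, from 0.115% at the 5th to 30.2% at the 95th percentile, against 21.1% to 44.6% in bone marrow of run 1. After thinning every cell to 500 UMIs, which left out 27 cells of blood of run 1, 98.4% to 99.9% of cells still had an S100a8 UMI in 5 libraries, and 88.7% did in spleen of run 2 (96.7% unthinned). Of the Cd79a- or Cd79b-positive cells that the cell rule left out, 79.7% to 100% also held an S100a8 UMI. Free RNA and doublets cannot be told apart as its source here. Their S100a8 level was 3967 CPM in spleen, 20170 CPM in blood and 33132 CPM in bone marrow of run 2, against 75663 to 224023 CPM in the kept cells. Across the thinned cells of a library, Spearman's rho between S100a8 and S100a9 was 0.897 to 0.927 in blood of run 1 and both spleen libraries, 0.838 in blood of run 2, and 0.522 and 0.519 in bone marrow, as a description of cells that share a library and a depth.

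S100a6 and S100a11 were higher in blood than in bone marrow on the CPM scale in both runs. S100a6 was at 6471 and 5974 CPM in blood, 4785 and 4776 CPM in bone marrow, and 3925 and 3806 CPM in spleen. The libraries of the 3 tissues did not overlap, with spleen lowest in both runs. S100a11 was at 9336 and 11442 CPM in blood, 6547 and 7299 CPM in bone marrow, and 7034 and 7704 CPM in spleen, so that spleen and bone marrow overlapped. Blood over bone marrow was 0.44 and 0.32 (log2) for S100a6 and 0.51 and 0.65 for S100a11. Those values sit close to a shift of all genes: fitted on library totals, the median gene was 0.42 higher in blood and 0.33 higher in spleen than in bone marrow. With TMM factors, which centre on most genes, S100a6 stood at 0.01 (SE 0.42, FDR 0.994) and S100a11 at 0.22 (SE 0.46, FDR 0.833) in edgeR for blood over bone marrow. S100a6 in spleen was −0.53 against bone marrow (SE 0.42, FDR 0.785) and kept its sign under each alternative tried, but was never called.

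Other cells were most frequent in spleen of run 2. The lymphocyte set there (at least 2 UMIs over Cd3d, Cd3g, Trac, Trbc2, Lck, Cd3e, Nkg7 and Klrd1) held 407 cells, 15.9% of the kept cells, with S100a6 at 338 CPM and S100a11 at 733 CPM. Without this set and the monocyte set described below, S100a6 in spleen was 5246 CPM in place of 3806 CPM in run 2 and 3964 in place of 3925 CPM in run 1. S100a11 was 10687 in place of 7704 CPM and 7222 in place of 7034 CPM. The S100a6 levels of spleen then straddled those of bone marrow (4878 and 4837 CPM). S100a8 without the sets was 235775 and 229668 CPM in bone marrow, 150642 and 110393 CPM in blood, and 211511 and 105474 CPM in spleen, where all kept cells had 208245 and 75663 CPM.

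S100a4 and S100a10 were rare transcripts, found in most of the healthy libraries mainly in kept cells that carried monocyte or lymphocyte transcripts. Blood of run 2 was the exception, where 70.1% of the S100a10 UMIs (68) lay in cells of neither set. S100a4 was at 211 and 15.4 CPM in blood, 38.2 and 21.4 CPM in bone marrow, and 15.5 and 42.2 CPM in spleen. S100a10 was at 139 and 27.6 CPM in blood, 60.9 and 29.9 CPM in bone marrow, and 12.6 and 141 CPM in spleen. The SD between the 2 libraries was 138 CPM in blood for S100a4 and 79.1 and 90.6 CPM in blood and spleen for S100a10, more than the tissue means differed. These values rest on 43 to 364 UMIs for S100a4 and 35 to 393 UMIs for S100a10 in a library.

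The monocyte set (at least 2 UMIs over Ccr2, Ms4a6c, F13a1, Fcgr1 and Cx3cr1) held 13 to 86 cells per library, at most 5.73% of the kept cells. It carried 94.8%, 96.3% and 90.7% of the S100a4 UMIs in blood, bone marrow and spleen of run 1, and 77.8%, 97.4% and 60.2% in run 2. Within it S100a4 stood at 478 to 1215 CPM, whereas cells of neither set were at 0.570 to 15.9 CPM. S100a10 in the monocyte set was at 319 to 1255 CPM, with 83.0%, 83.1% and 71.4% of its UMIs in run 1 and 28.9%, 73.6% and 7.89% in run 2. In spleen of run 2 the lymphocyte set took 80.4% of the S100a10 UMIs, at 421 CPM, and 13.6% of those of S100a4, at 21.3 CPM. Cells of neither set held 3.06 to 26.7 CPM of S100a10. The calprotectin genes were the reverse: S100a8 was at 3144 to 26483 CPM in the monocyte set and at 105474 to 235775 CPM in cells of neither set. In the lymphocyte set S100a8 was at 7172 CPM in spleen of run 2. It was at 96356 to 235164 CPM in that set in the other libraries, where the set held 8 to 38 cells. The sets are thus defined by transcripts and are not cell types. S100a6 (1618 to 3244 CPM) and S100a11 (1153 to 1915 CPM) were also lower in the monocyte set than in any whole library.

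**Figure D3:**
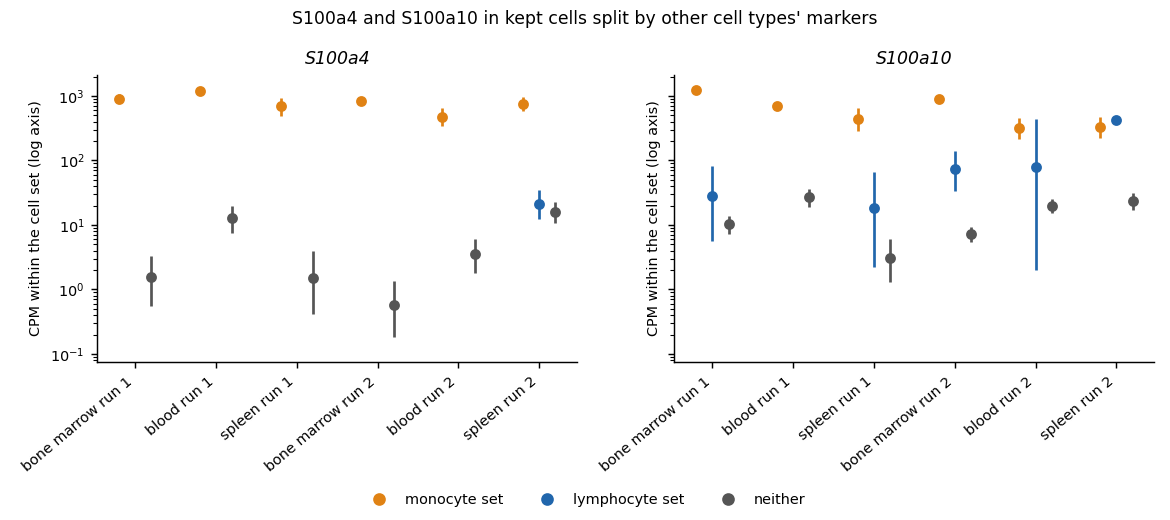
S100a4 and S100a10 in CPM (log axis) within the kept cells that have at least 2 UMIs of monocyte-set genes, at least 2 UMIs of lymphocyte-set genes, or neither, per library, with exact 95% Poisson intervals for counting error only; sets under 10 cells or without a UMI of the gene are not drawn. S100a4 lies at 478 to 1215 CPM in the monocyte set and at or below 15.9 CPM in cells of neither set.

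Neither gene had a tissue call with all kept cells. S100a4 in blood over bone marrow was 2.46 (log2) in run 1 and −0.48 in run 2 (edgeR over both: 1.08, SE 0.97, FDR 0.573), and S100a10 was 1.195 and −0.12 (0.39, SE 1.06, FDR 0.876). Without the cells of both sets the runs had the same sign, at 3.04 and 2.62 for S100a4, from 5 to 18 UMIs per library, and at 1.38 and 1.47 for S100a10, from 38 to 68 UMIs. The S100a4 symbol also overlaps another annotated gene, Gm42674, on the same strand. That symbol was not listed in run 1 and had 0 UMIs in the other tables, so that reads over shared bases are uncertain.

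The members took different courses along maturation. Healthy cells, thinned to 500 UMIs, were ranked in each run by the UMIs of 6 late genes (Csf3r, Il1b, Ccl6, Junb, Ifitm1, Ifitm2) minus those of 6 early genes (Camp, Ngp, Ltf, Lcn2, Chil3, Ifitm6) and cut into 5 bins of equal size, from early (bin 1) to late (bin 5). The bins are ranges of a score, with 16 to 483 cells tied at a cut, and are not cell types. In runs 1 and 2, 32.5% and 53.6% of bone marrow cells fell in bin 1, as did 3.39% and 1.00% of blood cells and 27.7% and 2.58% of spleen cells. Bin 5 held only 28 and 33 bone marrow cells, against 34.5% and 33.5% of blood cells.

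Without the monocyte and lymphocyte sets, S100a8 was highest in bin 1 or 2 in all 6 libraries and lower in bin 5. It went from 303253 to 85703 CPM in blood and from 239714 to 139133 CPM in bone marrow of run 1, and from 247263 to 93257 and from 239197 to 158423 CPM in run 2. Spleen went from 243658 to 95905 CPM and from 222858 to 81541 CPM. The late bin thus held 0.283 to 0.662 of the early level, and S100a9 0.301 to 0.704. S100a6 and S100a11 had the opposite course. S100a11 was 2.13 to 3.25 times higher in bin 5 than in bin 1, and S100a6 1.50 to 3.97 times higher with its peak in bins 2 to 4. With S100a8 and S100a9 taken out of the totals, those folds were 1.45 to 2.63 for S100a11 and 1.09 to 3.21 for S100a6.

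**Figure D4:**
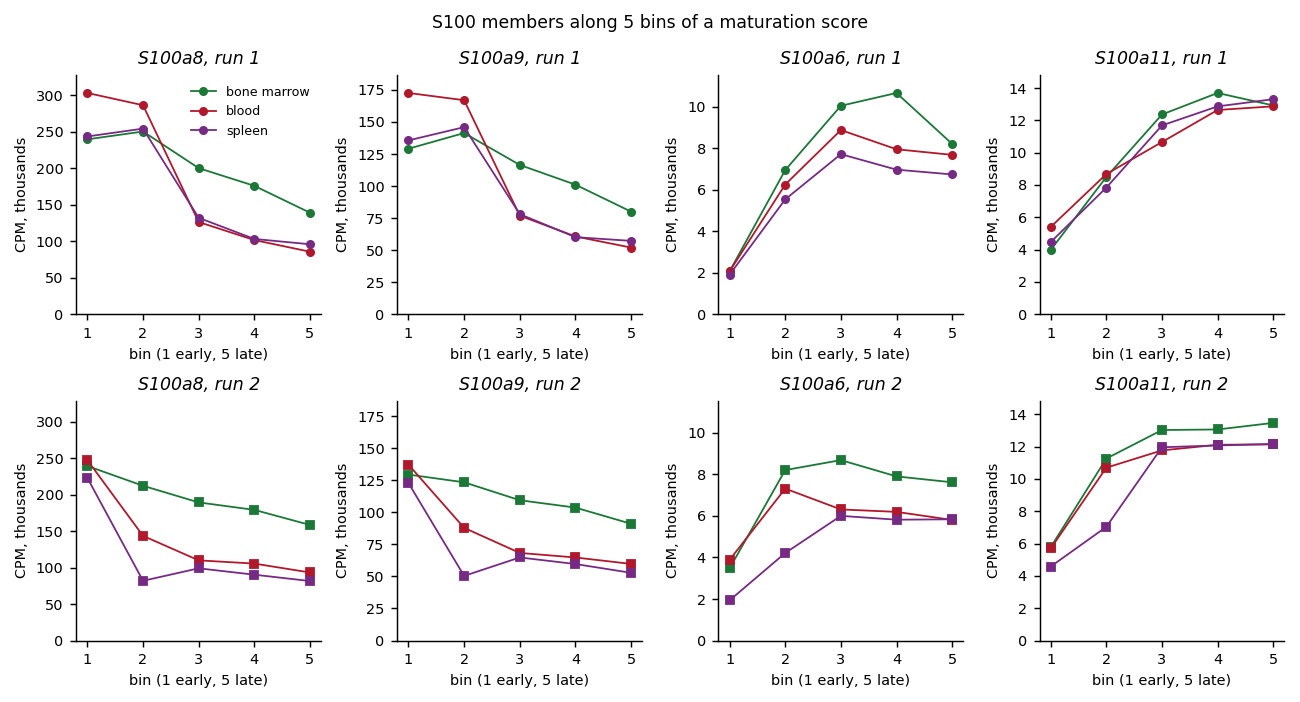
Level of the 4 abundant members (CPM divided by 1000, axis from 0) in 5 bins of the maturation score, run 1 above and run 2 below, one line per tissue, without cells of the monocyte and lymphocyte sets. S100a8 and S100a9 are lower in the last bin than in the first in each library, S100a11 is higher, and S100a6 peaks in bins 2 to 4.

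Comparing tissues within bins separated the members further. S100a8 was lower in blood than in bone marrow in bins 3 to 5 of both runs, and in 3 of 5 and 4 of 5 bins in all, with a median of −0.66 and −0.76 (log2). In bin 1 S100a8 was 303253 CPM in blood and 239714 CPM in bone marrow of run 1 (0.34), where the bin held 47 blood cells, and 247263 and 239197 CPM in run 2 (0.05). S100a11, at 0.51 and 0.65 in favour of blood over all kept cells, had within-bin medians of −0.01 and −0.11. S100a6, at 0.44 and 0.32 over all kept cells, was lower in blood in 5 of 5 and 4 of 5 bins, with medians of −0.15 and −0.35. The S100a8 to S100a9 ratio was lower in blood than in bone marrow in 5 of 5 bins of both runs. These comparisons have 1 value per run and bin and were not tested, and the late bone marrow bins are small.

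Correlations across cells were lower for the second pair, whose median thinned cell held 2 or 3 UMIs of S100a6 and 4 to 6 of S100a11, against 35 to 118 of S100a8 and 24 to 66 of S100a9. With depths this unequal the pairs cannot be ranked by their correlation. Spearman's rho between S100a6 and S100a11 was 0.174, 0.438 and 0.384 in blood, bone marrow and spleen of run 1 and 0.0803, 0.391 and 0.442 in run 2. Without the monocyte and lymphocyte sets it was 0.101, 0.453 and 0.382 in run 1 and 0.0691, 0.376 and 0.161 in run 2. Between S100a8 and S100a11 rho ran from −0.387 in spleen of run 1 to 0.442 in spleen of run 2. Without the sets, which left out 441 cells of spleen of run 2, these were −0.432 and 0.0759, and the other libraries lay between −0.203 and 0.0148.

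In inflammation, S100a8 and S100a9 were higher than in healthy blood in all 4 inflamed conditions, most in blood of arthritic mice. S100a8 was at 65493 CPM in healthy blood, 110682 CPM in arthritic blood, 76140 CPM in the arthritic joint, 76752.5 CPM in IL-1β lung and 73728.5 CPM in IL-1β peritoneum. S100a9 was at 72553, 137855, 83557, 93857 and 94490 CPM in the same order. Healthy blood was lowest and arthritic blood highest for both genes, and among neighbours in the order of conditions only S100a9 in peritoneum and lung differed by less than counting error. The order of the other sites depended on the measure. The median cell gave 6.33% of its UMIs to S100a8 in the joint, 4.61% in peritoneum and 4.48% in lung. All conditions came from 1 library, so that folds have no replicate check, and their intervals are exact 95% intervals for counting error alone.

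Arthritic over healthy blood was 1.69 for S100a8 (1.68 to 1.70), 1.90 for S100a9 (1.89 to 1.91), 1.45 for S100a6 (1.41 to 1.48) and 1.10 for S100a11 (1.08 to 1.13). The median log2 fold of these 4 members was 0.64, beside −0.34 over all 2662 genes at 50 CPM or more in either condition, of which 3.61% were past 2-fold; 0 of the 4 members were. In the joint the folds over healthy blood were 1.16, 1.15, 1.23 and 1.24 in the same order, and in IL-1β lung 1.17, 1.29, 0.764 and 0.672. In IL-1β peritoneum they were 1.13, 1.30, 0.836 and 0.764. None of the 4 members passed 2-fold in these comparisons either, against 32.4%, 59.2% and 60% of genes. S100a6 and S100a11 were thus above healthy blood in both arthritis conditions and below it at both IL-1β sites on the CPM scale. The joint against arthritic blood gave 0.688, 0.606, 0.850 and 1.13, and lung against peritoneum 1.04, 0.993, 0.914 and 0.880, with 0 members past 2-fold beside 24.5% and 16.4% of genes. The first 4 of these comparisons share the healthy blood cells.

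The scale decided how large these folds were. The TMM factor was 1.52 for healthy blood, 1.10 for arthritic blood, 0.986 for joint, 0.792 for lung and 0.766 for peritoneum, so that TMM raised each fold over healthy blood. S100a8 and S100a9 then reached 2.33 and 2.62 in arthritic blood (3.29% of genes past 2-fold), 2.25 and 2.48 in lung (47.7%), and 2.23 and 2.58 in peritoneum (46.4%), but 1.79 and 1.77 in the joint (29.4%). The folds of S100a6 and S100a11 at the IL-1β sites turned to the other side of 1 on this scale, at 1.47 and 1.29 in lung and 1.66 and 1.51 in peritoneum. On either scale the calprotectin genes were above healthy blood in all 4 conditions.

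**Figure D5:**
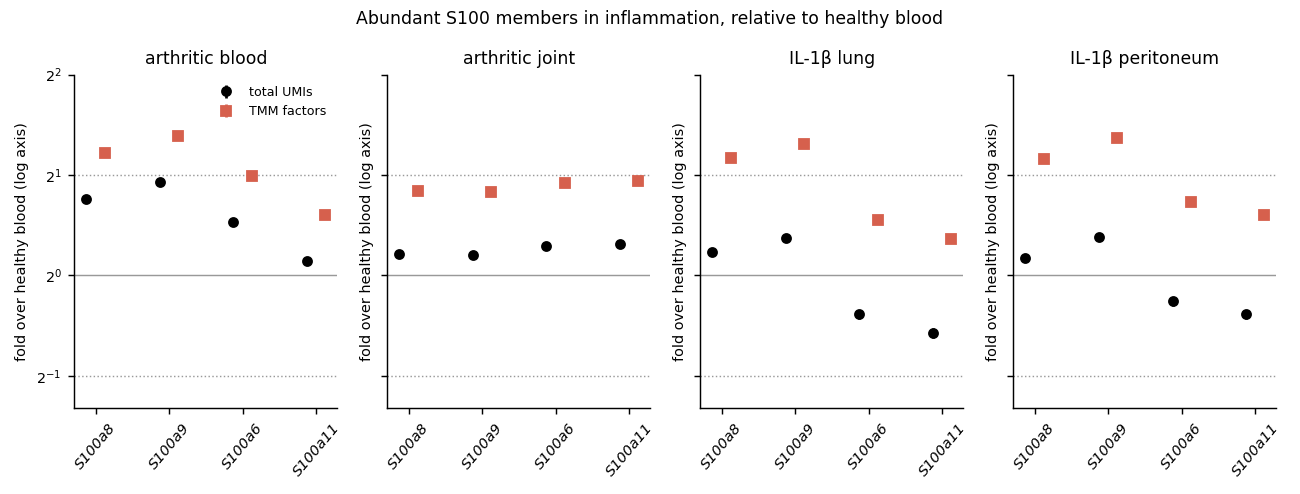
Fold over healthy blood (log axis, dotted lines at 2-fold either way) of the 4 abundant members in each inflamed condition, by total UMIs (circles, exact 95% counting intervals) and with TMM factors (squares, no interval). By totals S100a9 in arthritic blood is highest at 1.90; with TMM factors S100a6 and S100a11 at the IL-1β sites move from below to above 1.

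The ratio of S100a8 to S100a9 was 0.903 in healthy blood, 0.803 in arthritic blood, 0.911 in the joint, 0.818 in lung and 0.780 in peritoneum, with no order shared by the 2 kinds of inflammation. The median cell gave 9.26% of its UMIs to the pair in healthy blood, 23.2% in arthritic blood, 13.1% in the joint, 10.6% in lung and 11.3% in peritoneum. S100a4 and S100a10 rested on few UMIs, most of them in the joint, which had the most UMIs in all. S100a4 had 8, 3, 87, 1 and 14 UMIs in the 5 conditions, and S100a10 had 2, 2, 59, 2 and 0, where a count of 0 allows up to 3.18 CPM. As levels, S100a4 was 7.11, 1.11, 8.45, 0.757 and 14.9 CPM, and S100a10 at most 5.73 CPM, in the joint. Cells of neither the monocyte nor the lymphocyte set held 87.5% to 100% of the S100a4 UMIs in the 5 conditions, where they held 97.9% to 99.7% of all UMIs.

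Receptors and binding partners of S100 proteins were read from a list of 24 genes. Of these, 23 were tested between tissues, and 1 was called, Cd14, the co-receptor of TLR4. That call, and those of Atf3 and Irf7 below, were lost with all deposited cells, without the run as a block and without either blood library, where edgeR called 0 genes with 1218 to 1425 at an unadjusted p under 0.05. Cd14 was at 33.0 and 137 CPM in blood and at 2.63 and 10.8 CPM in bone marrow (edgeR log2 3.29, SE 0.25, FDR 0.0238), when 3.65% of all genes were called higher and 1.08% lower. An unadjusted p under 0.05 was found for 7 partners, beside 1899 of all 8328 genes (22.8%). One was Anxa1 (annexin A1, bound by S100A11), at 1218 and 1314 CPM in blood, 3675 and 3407 CPM in bone marrow, and 3926 and 1235 CPM in spleen (blood over bone marrow −1.81, SE 0.69, FDR 0.200). Anxa2, whose protein binds S100A10, was at 0.33 (SE 0.38, FDR 0.668), Myh9, the myosin heavy chain bound by S100A4, at −0.26 (SE 0.41, FDR 0.775), and Cacybp, the calcyclin-binding protein, at 0.16 (SE 0.34, FDR 0.842). Ahnak, a scaffold bound through S100A10, was at 1.04 (SE 0.79, FDR 0.502), Tlr4 at 0.51 (SE 0.27, FDR 0.336) and Bsg, a receptor for S100A9, at 0.03 (SE 0.22, FDR 0.954). The median over the list was 0.03, beside 0.04 over all genes. In either spleen contrast 0 partners were called, with 2 in each at an unadjusted p under 0.05, beside 8.50% of all genes against bone marrow and 9.26% against blood.

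At the inflamed sites Cd14 and Tlr4 were far above healthy blood. Cd14 was at 103 CPM in healthy blood, 141 CPM in arthritic blood, 3362 CPM in the joint, 8897 CPM in lung and 5514 CPM in peritoneum. Tlr4, the receptor itself, was at 38.2, 27.1, 111, 171 and 108 CPM. Arthritic blood, where calprotectin transcripts were highest, was below all 3 in both. Anxa1 was at 689 CPM in healthy blood and 835 CPM in arthritic blood, but at 328, 241 and 333 CPM at the other sites. With TMM factors its log2 folds over healthy blood were −0.45 in the joint, −0.57 in lung and −0.06 in peritoneum, so that none was past 2-fold. On UMI totals, past 2-fold over healthy blood were 0 of 14 partners in arthritic blood, 4 higher and 2 lower of 16 in the joint, 4 and 5 of 15 in lung, and 6 and 3 of 16 in peritoneum. Over all genes, 0.639% were past 2-fold higher and 2.97% lower in arthritic blood, 12.2% and 20.3% in the joint, 14.4% and 44.7% in lung, and 14.5% and 45.5% in peritoneum. These counts depended on the scale: with TMM factors 1 of 13 partners was higher in arthritic blood and 0 lower, 5 higher and 1 lower in the joint, and 7 and 10 higher with 0 lower in lung and peritoneum. Over all genes TMM gave 3.15% higher and 0.141% lower, 25.6% and 3.78%, 34.4% and 13.3%, and 34.7% and 11.7% in the same order.

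The list of transcription factors known to act on S100a8 or S100a9 held 14 symbols, in which Bmal1 and Arntl name the same gene. Of these, 11 were tested between tissues. Atf3 and Irf7 were called higher in blood than in bone marrow, beside 3.65% of all genes. Atf3, a stress-induced factor, was at 31.2 and 57.7 CPM in blood and 9.71 and 51.2 CPM in spleen, with 0 and 15 UMIs in bone marrow, (edgeR log2 5.39, SE 0.60, FDR 0.0266). The 0 stands for a gene that the run 1 table does not list, and that table holds no gene under 11 UMIs, so the true fold may be smaller and the call was not tested with other values. Irf7, an interferon-pathway factor, was at 205 and 158 CPM in blood, 45.1 and 36.3 CPM in bone marrow, and 97.4 and 101 CPM in spleen (log2 1.78, SE 0.24, FDR 0.0300). An unadjusted p under 0.05 was found for 8 factors in that contrast, where 22.8% of all genes had one. It was found for 3 in each spleen contrast, where 0 were called, beside 8.50% of all genes against bone marrow and 9.26% against blood. The list median for blood over bone marrow was 0.67, beside 0.04 over all genes. On UMI totals, past 2-fold over healthy blood were 0 of 7 factors in arthritic blood, 5 of 7 higher in the joint, 2 higher and 1 lower in lung, and 3 higher and 1 lower in peritoneum. Over all genes 12.2% were higher in the joint, 14.4% higher and 44.7% lower in lung, and 14.5% and 45.5% in peritoneum. With TMM factors the factors past 2-fold were 1, 5, 4 and 4 higher and 0 lower, with Spi1 in lung at −0.39 in place of −1.33 (log2) and Atf3 in peritoneum at −0.95, beside 3.15%, 25.6%, 34.4% and 34.7% of all genes higher.

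Over the 6 libraries and 5 conditions, each dataset centred on its own mean, the gene most like S100a8 among 2108 candidates was S100a9 (Pearson's r = 0.984), followed by Mapk13 (0.940) and Msra (0.928). S100a9 was next most like Atxn10 (0.944) and Mapk13 (0.925). For S100a6 the 3 nearest were Phyh (0.923), Dhrs9 (0.883) and Bin3 (0.876), and for S100a11 they were 1810058I24Rik (0.963), Cd52 (0.955) and Lyst (0.944). S100a4 was nearest to Elmo1 (0.910), Rap1a (0.899) and Crip1 (0.895), and S100a10 to Crip1 (0.940), Srsf11 (0.865) and Calr (0.864). Among members, S100a6 and S100a11 reached 0.859 and S100a4 and S100a10 0.799, while S100a8 and S100a11 had −0.217. These are descriptions over 11 points that share libraries and totals. Without the monocyte and lymphocyte sets, S100a9 remained nearest to S100a8 (0.976) and Phyh to S100a6 (0.946), but S100a11, S100a4 and S100a10 took other nearest genes, Oas3, Rest and Tra2a.

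Among the other S100 symbols, 2 reached 20 CPM somewhere and 10 stayed below it. S100a13 was at 178 and 100.4 CPM in blood, 258 and 221 CPM in bone marrow, and 223 and 121 CPM in spleen, and at 39.4 to 75.6 CPM in inflammation. Blood lay below bone marrow in both runs, as for S100a8, without passing the test (edgeR log2 −1.23, SE 0.37, FDR 0.125). S100a1 ranged from 0.757 to 21.4 CPM.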

How the data were processed

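Single-cell RNA libraries of sorted mouse neutrophils were analysed from counts: 3 tissues in 2 runs and 1 library of 5 hashtag conditions. The deposited values are counts of UMIs per gene symbol and cell barcode, which the authors made with Cell Ranger (by the study's methods version 1.2.0 in run 1, version 2.1.0 in run 2, version 3.0.2 in inflammation) on mm10, before their cell filters. Run 1 tables hold only genes with at least 11 UMIs. A second deposited table gives each inflammation cell's condition and cell type as text, and hashtag doublets had been removed by the authors. The study names version 2 reagents for healthy libraries and version 3 for inflammation.

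Cells were kept by the rule given above, with no doublet caller and no correction for free RNA, and UMIs were summed per library. Tissues were compared with edgeR 4.0.16 in R 4.3.3 (quasi-likelihood test, TMM factors, its filter on low counts, run as a block, FDR 0.05), with DESeq2 1.42.0 as an alternative. Replicates are 2 pools of mice per tissue. Deviations from tissue means correlated between tissues of a run (Pearson 0.541 for bone marrow with blood, 0.298 for spleen with blood, 0.525 for spleen with bone marrow), and the tissues came from the same mice, so the run was kept as a block. Conditions of the inflammation library were compared by CPM among genes at 50 CPM or more in either, past 2-fold, with no test. Ratios and shares were tested by exact permutation over libraries (two-sided by construction, on the sum of squares between tissue means). Intervals are exact at 95% and cover counting error only. A count of 0 was given the limit of 3 UMIs. The edgeR steps were tested on simulated counts. For blood against bone marrow they found 2.17% of 92 genes changed 2-fold and 45% of 100 genes changed 4-fold.

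Genes named are the 6 members, other S100 symbols at 20 CPM or more, listed partners and factors that were called or chosen by name (Anxa1, Anxa2, Myh9, Cacybp, Ahnak, Tlr4 and Bsg), and the 3 genes most like each member by Pearson's r of log2(CPM + 10) among genes with a mean of at least 50 CPM. Members and lists were chosen with earlier results of these data known. Values without the monocyte and lymphocyte sets, TMM counts of the lists, the permutation within runs, and the naming of Spi1 were added after seeing the data. Computations outside R used Python 3.11.15, numpy 2.4.6, pandas 2.3.3 and scipy 1.17.1.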

Additional observations from a re-analysis of the deposited data

Results flagged for a closer look

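Several members moved in opposite directions in the 2 runs when a tissue pair was compared, on the log2 CPM scale, and the difference between runs was not tested. S100a4 in blood over bone marrow was 2.46 in run 1 and −0.48 in run 2, and S100a10 was 1.195 and −0.12. In spleen over bone marrow S100a4 was −1.31 and 0.98, and S100a10 −2.27 and 2.23. In spleen over blood S100a4 was −3.77 and 1.46, and S100a10 −3.47 and 2.35. The abundant pair did the same in spleen over blood alone, S100a8 at 0.72 and −0.51 and S100a9 at 0.66 and −0.50. Without the cells of the monocyte and lymphocyte sets, blood over bone marrow was 3.04 and 2.62 for S100a4 and 1.38 and 1.47 for S100a10, of the same sign in both runs, and spleen over blood was 0.49 and −0.07 for S100a8 and 0.43 and −0.05 for S100a9.

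Some of the cells that the cell rule left out of the comparisons, those with lymphoid markers in run 2, held more S100a10 than the kept cells. Cells with Cd79a or Cd79b had 520 CPM in blood, 437 CPM in bone marrow and 423 CPM in spleen, against 27.6, 29.9 and 141 CPM in the kept cells. Spleen cells with Cd3e had 529 CPM and those with Nkg7 838 CPM. Haemoglobin cells of blood in run 2 had less, at 9.47 CPM.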

How the results depend on the processing

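With 2 libraries per tissue, a single library can weigh heavily on the spread, and a lone library of a tissue is assumed to vary like the others. UMI depth limits S100a4 and S100a10 most. Of the summary values under alternatives, 117 were labelled the same as the main value and 37 moved. The exact permutation tests of ratio and share could give no p below 0.0667 in any setting. Their sameness therefore says nothing about stability. Genes called for blood over bone marrow (394) were 634 with DESeq2, 0 without the replicate block, 0 with all deposited cells, 177 with limits on mitochondrial UMIs and genes per cell, 1744 without the monocyte and lymphocyte sets, and 0 to 1802 when each library was left out. For spleen over bone marrow (0) they were 99 with DESeq2 and 18 without the low-count filter. They were 295 without cells holding at least 2 UMIs over 11 monocyte or macrophage markers (monocyte-marker cells). They were 191 without the sets, and 0 to 975 leaving out libraries. For spleen over blood (0) they were 17, 8, 61, 5 and 0 to 233 in the same order. Members called were 2 for blood over bone marrow without the sets, and 0 to 2, 0 to 3 and 0 to 3 in the 3 contrasts leaving out libraries. Without the replicate block 0 members were called. In arthritic blood 1 member was past 2-fold with cells weighted equally, 1 with S100a8 and S100a9 left out of the totals and 2 with TMM factors; TMM gave 2 in lung and 2 in peritoneum. The cause was not tested.

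Estimates changed sign in 48 cases. The setting without monocyte-marker cells left out most bone marrow cells, keeping 298 of 1226 in run 1 and 1504 of 3465 in run 2. It kept 1238 of 1502 and 3607 of 3782 blood cells, and 687 of 1184 and 2404 of 2556 spleen cells. For blood over bone marrow, S100a6 (0.01) was −0.032 with DESeq2, −0.46 without monocyte-marker cells and −0.17 with the limits; S100a11 was −0.14 and S100a10 −0.026 without monocyte-marker cells. For spleen over bone marrow, S100a11 was 0.10 without TMM factors and 0.075 without the sets, and S100a4 was 0.29 without TMM factors, 3.11 without monocyte-marker cells, 0.26 with the limits and 2.80 without the sets. For spleen over blood, S100a8 and S100a9 were −0.024 and −0.081 with all cells and −0.24 and −0.24 without monocyte-marker cells. S100a4 was 1.01 without monocyte-marker cells and 0.25 without the sets. S100a10 was −0.029 without the low-count filter, −0.033 without the replicate block, −0.032 with all cells, −0.088 with the limits and −0.84 without the sets. Leaving out each library gave, for blood over bone marrow, −0.31 to 0.23 (S100a6), −0.23 to 0.55 (S100a11), −1.15 to 2.24 (S100a4) and −1.53 to 1.29 (S100a10). For spleen over bone marrow it gave −1.99 to 0.0097 (S100a9), −0.59 to 0.27 (S100a11), −1.98 to 0.93 (S100a4) and −2.47 to 1.89 (S100a10). For spleen over blood it gave −0.86 to 1.27 (S100a8), −0.83 to 1.18 (S100a9), −0.83 to 0.047 (S100a11), −2.73 to 0.78 (S100a4) and −2.68 to 1.67 (S100a10).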
